A study of Mus musculus with 4 samples.

Results

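This report describes 52 mouse genes for core splicing proteins in 2-cell embryos cultured with or without dimethyl sulfoxide (DMSO), a solvent in common use for dissolving drugs and for freezing cells. The genes were listed by symbol, and each was matched to the table of TPM values, which give each transcript's share of a library's transcripts per unit of length, through its Ensembl ID. Of the 52 genes, 51 were found among the 30049 genes of the table, and Snrnp70 was not analysed here. They fell into 4 groups by role: 11 snRNP proteins, 18 factors of the U2 and U5 particles and of the tri-snRNP, 10 SR proteins and 12 hnRNP proteins.

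All embryos were wild type and came from BDF1 mice. Fertilized zygotes were collected 18 h after the hCG injection that triggers ovulation and were cultured for 24 h in KSOM, a standard embryo medium, either without DMSO (control, 2 libraries) or with 2% DMSO (2 libraries), and each group held 50 embryos at the 2-cell stage. The study asked how DMSO affects mouse embryos before implantation. The labels do not say whether the libraries of a group came from separate collections of embryos, so the p-values below measure the spread between these 4 libraries, which may be technical.

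A mammalian gene is transcribed together with its introns, and the spliceosome cuts these out. The spliceosome is assembled from small nuclear ribonucleoprotein particles, the snRNPs. Each holds a small nuclear RNA, and in most of them that RNA is wrapped by a ring of Sm proteins. The U1 particle recognises the 5′ splice site, the U2 particle binds the branch point, and the U4, U5 and U6 particles join as a tri-snRNP before catalysis. SR proteins bind exons and mostly favour the use of nearby splice sites, whereas hnRNP proteins coat nascent transcripts and often oppose it. In the mouse the main wave of embryonic transcription begins at the 2-cell stage, while transcripts stored in the egg are being cleared.

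Most of the genes had lower TPM values in the embryos cultured with DMSO. Averaged over the 4 libraries, 48 of the genes reached 1 TPM, and of these 12 fell, 1 rose (Snrpg) and 35 did not pass the test, which was limma on log2(TPM + 1) with a Benjamini-Hochberg adjusted p under 0.05 over all 12038 genes tested. Among all genes tested, 20.5% were called, 14.1% lower and 6.42% higher. The log2 fold change, DMSO minus control, was below 0 in 39 of the 48 genes, or 81.3% of them, beside 53.2% of all genes tested, and its median was -0.81 beside -0.09. In 34 of the 48 genes both DMSO libraries lay below both control libraries, a pattern held by 38.7% of all genes tested. In 5 they lay above both, a pattern held by 31.1%, and in 9 the groups overlapped. A further 13 genes had an unadjusted p under 0.05 and were not called, and all 13 had lower values in DMSO.

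The share of genes called differed with the abundance of the transcripts. Of the genes in the table that averaged 10 TPM or more, 22% were called lower and their median log2 fold change was -0.27. The splicing genes at that level numbered 44, of which 12 (27.3%) fell, with a median of -0.81. From 50 TPM upwards, 6 of 27 splicing genes (22.2%) fell beside 26.5% of all genes, and the medians were -0.45 and -0.40. Between 10 and 50 TPM 6 of 17 splicing genes fell and between 50 and 100 TPM 4 of 7, beside 19.2% and 27% of all genes in those ranges. Of the 20 splicing genes at 100 TPM or more, 2 (10%) fell (Srsf5 and Hnrnpm) and 1 rose (Snrpg). Of all genes at that level, 26.1% were called lower and 9.36% higher. The median of these splicing genes was -0.23 beside -0.40.

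These counts rested on few libraries and on the filter for low values: with all 22257 genes above 0 in any library fitted, limma called 0 genes, while 25 of the splicing genes and 5368 of all genes had an unadjusted p under 0.05. With a filter of 5 TPM 15 splicing genes were called lower, adding Snrpd1, Srsf7 and Hnrnpa2b1. With the 1st control, the 2nd control or the 1st DMSO library left out, no gene of the table was called, the splicing genes included, and an unadjusted p under 0.05 was reached by 17, 12 and 17 of the splicing genes and by 3745, 2602 and 3078 of all genes in turn. Without the 2nd DMSO library 13 splicing genes were called, of which 10 were among the 13 above (Snrpg, Prpf4 and Srsf5 were lost). An exact permutation test of 1 gene over 2 against 2 libraries cannot give a two-sided p below 0.333. Within the DMSO group the 1st library was the lower for 37 of the 48 genes and for all 12 that fell, beside 45.9% of all genes tested.

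The libraries also differed in what else they held. Mitochondrially encoded genes made up 10.8% and 12.4% of the summed TPM in controls against 15.3% and 21.7% in DMSO, and TPM values are relative to the rest of a library. With TPM rescaled without the mitochondrial genes, 35 of the 48 splicing genes were below 0 and 7 were called lower, and after quantile normalization 34 were below 0 and 6 were called lower. Over all genes, the same scalings called 1232 of 12025 and 1121 of 12038 lower in turn, with medians of 0.0058 and 0.0052. The labelled stage was checked against its markers. The 12 genes listed as 2-cell markers summed to 1256 and 903 TPM in the controls and to 4249 and 2843 TPM in the DMSO libraries, with Gm5662 the most abundant and none at 0, and 6 of the 11 tested rose. The 17 oocyte and zygote markers summed to 2146 and 1307 TPM in the controls and 5451 and 3818 TPM in DMSO, with Oosp1 the most abundant, and 3 of the 15 tested rose. The part of these other shifts in the fall of the splicing genes was not tested. Cumulus cells are the somatic cells around the egg, and their 15 markers summed to 40.8 and 33.3 TPM in the controls and 13.1 and 21.3 TPM in DMSO. Most of that sum was Amhr2, at 36.8 and 29.6 TPM in the controls and 8.29 and 16.5 TPM in DMSO, and Amhr2 was itself called lower (log2 fold change -1.42, limma adjusted p = 0.0442), while the other markers together came to between 3.70 and 4.85 TPM in each library. Amh, Inhba and Pgr were listed at 0 in every library. The part of cumulus cells in the fall of the splicing genes was not tested. In embryos measured in bulk, fewer cells and less RNA per cell cannot be told apart.

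**Figure D1:**
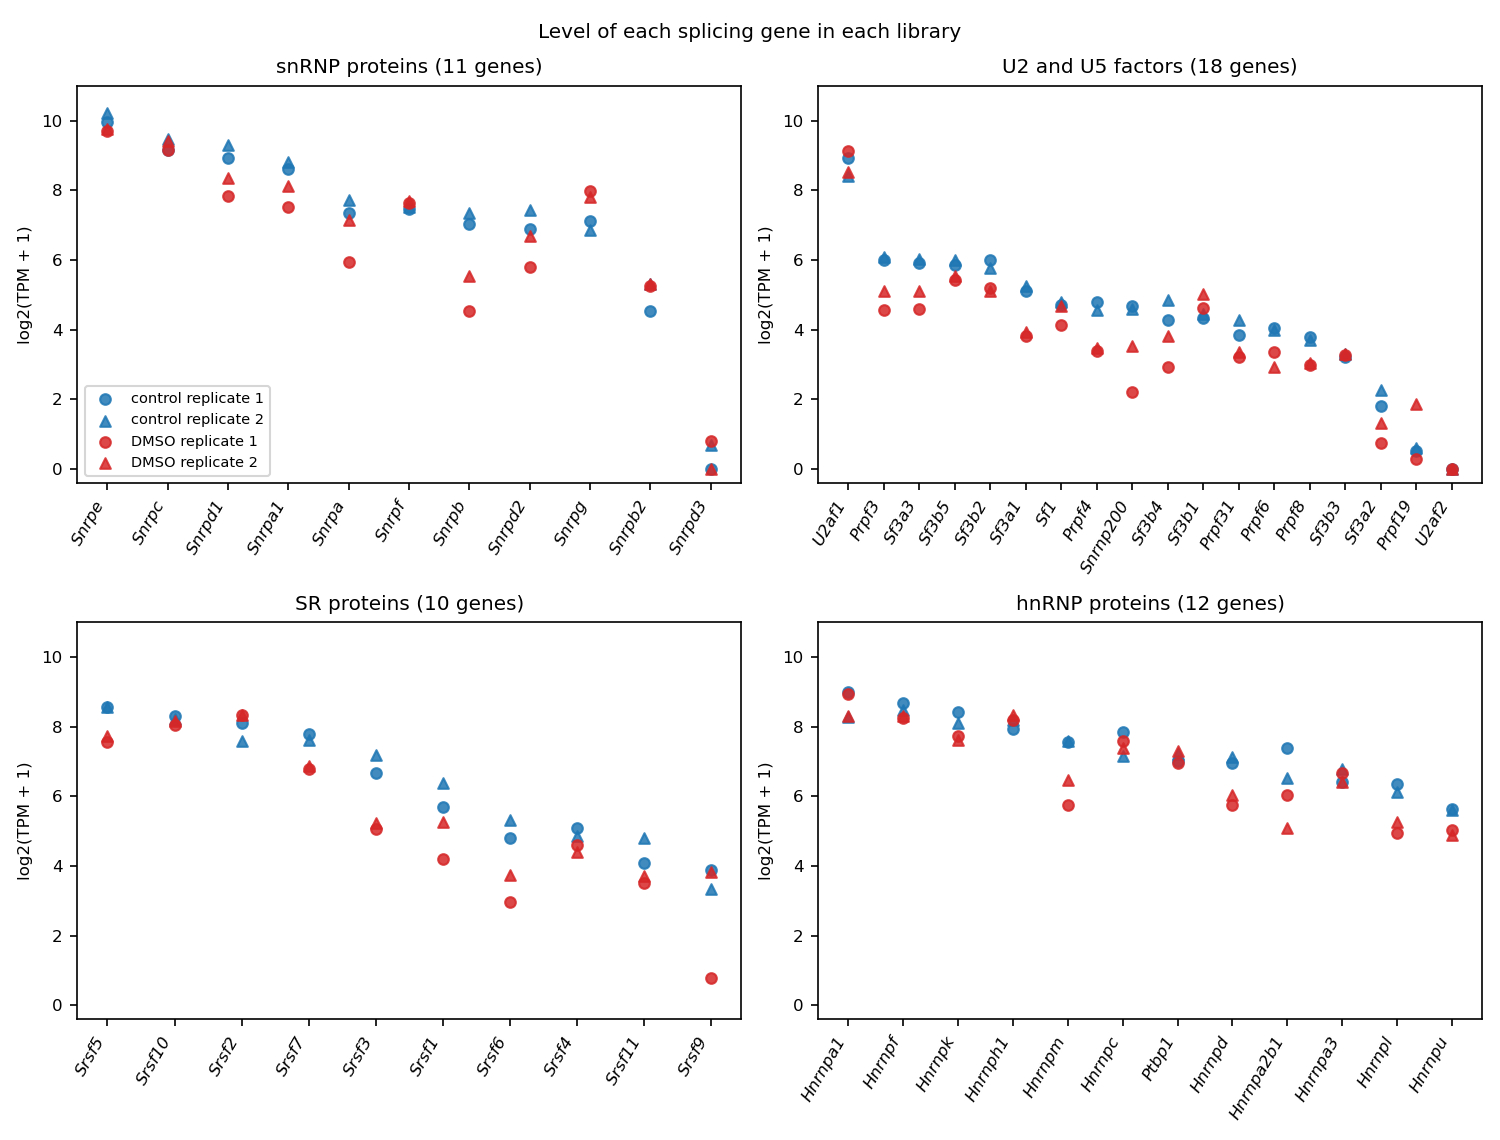
Level, as log2(TPM + 1), of the 51 splicing genes found, in each of the 2 control and 2 DMSO libraries, by group of proteins. In 34 of the 48 genes that averaged 1 TPM or more both DMSO points lie below both control points. Snrpg is the gene called higher.

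Some of these genes have processed pseudogenes, intronless copies whose near-identical sequence can take reads from the parent gene, so the sequences that tie 4 of them to a copy are shown here. They come from the GENCODE M21 transcripts of GRCm38, written 5′ to 3′ in the sense of the gene, and capitals mark the bases that differ between gene and copy. Snrpg and its copy Gm8186 (chr17:26098991-26099221) have identical sequence over all 231 coding bases, as do Hnrnpa1 and its copy Gm10052 (chr9:123689233-123690192) over 960 coding bases, so 1 line stands for each pair. Snrpf and Gm13092 (chr4:150315177-150315436) differ at 4 of 260 aligned bases, and Srsf3 and Gm9761 (chr3:116560935-116561426) at 2 of 492. All 4 copies lie on the minus strand. A stretch of 75 coding bases is given for each.
Snrpg and Gm8186: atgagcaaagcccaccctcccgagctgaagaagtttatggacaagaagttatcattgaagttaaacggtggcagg
Snrpf: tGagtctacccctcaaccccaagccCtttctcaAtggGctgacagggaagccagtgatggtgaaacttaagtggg
Gm13092: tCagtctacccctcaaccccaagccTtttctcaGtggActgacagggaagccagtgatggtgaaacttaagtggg
Srsf3: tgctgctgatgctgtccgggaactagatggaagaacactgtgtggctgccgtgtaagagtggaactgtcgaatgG
Gm9761: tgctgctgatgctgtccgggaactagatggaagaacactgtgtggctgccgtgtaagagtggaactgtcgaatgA
Hnrnpa1 and Gm10052: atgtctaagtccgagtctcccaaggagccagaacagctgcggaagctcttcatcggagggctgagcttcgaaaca

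The promoters of 47 of the 52 genes were matched to RefSeq sequences (GRCm38.p6) and searched, over the 250 bases before the start site and on both strands, for 4 short motifs. These were CCAAT, the GC box core GGGCGG, the core CCGGAAG that many ETS factors bind, and the TATA box core TATAAA. The ETS core stood in 16 of the 47 promoters (34%), in 5 of the 11 matched genes that fell (45.5%) and in 14.5% of 8433 promoters of protein-coding genes tested, beside 7.07% of all 27025 promoters. The shares in the 47 promoters and in those of the protein-coding genes tested were 59.6% and 56.6% for GGGCGG, 44.7% and 37.7% for CCAAT, and 10.6% and 6.9% for TATAAA. In the 11 genes that fell, CCAAT stood in 2 (18.2%), GGGCGG in 6 (54.5%) and TATAAA in 2 (18.2%). A match is a description of the letters and not a binding site. The 150 bases before the start are printed for Snrnp200 (chr2:127208236-127208385, plus strand) and Srsf5 (chr12:80945349-80945498, plus strand), which fell and hold the ETS core, and for Hnrnpd (chr5:99978939-99979088, minus strand), which fell and holds none in this window. Capitals mark every match to the 4 motifs or their reverse complements, and in Srsf5 the last GC box and the ETS core next to it overlap.
Snrnp200: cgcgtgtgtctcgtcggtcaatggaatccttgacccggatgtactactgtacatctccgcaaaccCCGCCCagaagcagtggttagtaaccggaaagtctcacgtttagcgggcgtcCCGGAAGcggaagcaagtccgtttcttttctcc
Srsf5: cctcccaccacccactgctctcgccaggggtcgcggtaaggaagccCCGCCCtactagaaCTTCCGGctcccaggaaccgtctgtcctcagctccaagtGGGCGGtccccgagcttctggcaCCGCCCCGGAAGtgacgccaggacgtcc
Hnrnpd: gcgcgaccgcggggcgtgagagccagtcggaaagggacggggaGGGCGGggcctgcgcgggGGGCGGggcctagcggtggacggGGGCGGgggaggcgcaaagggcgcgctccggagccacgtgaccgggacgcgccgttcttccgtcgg

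Among the 10 snRNP proteins tested, 1 fell, 1 rose and 8 were not called, beside 14.1% called lower and 6.42% higher of all genes tested. Their median log2 fold change was -0.63, which was -0.36 both without the 1st DMSO library and with no filter on low values. Snrpb encodes the Sm proteins B and B′ of the ring (chr2:130171414-130179403, minus strand). It measured 132 and 164 TPM in controls against 22.1 and 45.3 TPM in DMSO. The DMSO libraries lay far below the controls, at 22.8% of the control mean, and the log2 fold change was -2.18 ± 0.38 (SE, n = 2 libraries per group, limma adjusted p = 0.0219). Snrpg encodes the Sm protein G (chr6:86371304-86379328, plus strand). Its TPM was 138 and 115 in the controls and 251 and 224 in DMSO, and all DMSO values lay above the controls. The log2 fold change of Snrpg was 0.90 ± 0.25 (SE, n = 2 per group, limma adjusted p = 0.0489).

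The copy of Snrpg had higher values in DMSO as well. Gm8186 stood at 485 and 519 TPM in the controls and at 852 and 860 TPM in DMSO, more than 3 times the level listed for Snrpg in each library. Because the coding sequence printed above is the same in both, reads from it cannot be told apart, and how the TPM was divided between them is uncertain. The sum of gene and copy was 623 and 635 TPM in the controls and 1103 and 1084 TPM in DMSO. Its log2 fold change was 0.80 and was no longer called (limma adjusted p = 0.0538).

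None of the other Sm genes was called in the fit reported here, and differences between them were not tested. Snrpe, the most abundant, measured 1002 and 1195 TPM in the controls and 842 and 863 TPM in DMSO (log2 fold change -0.36, limma adjusted p = 0.297). Snrpd1 measured 488 and 633 TPM in the controls and 229 and 328 TPM in DMSO (log2 fold change -1.02, limma adjusted p = 0.0525), just outside the threshold. Snrpd2 had values of 117 and 172 TPM against 54.4 and 102 TPM, and it was not called either. Snrpf had 175 and 183 TPM in the controls and 199 and 207 TPM in DMSO, but its copy Gm13092 had 399 and 335 TPM against 459 and 383 TPM, and 92.1% of the words of 31 bases in Snrpf transcripts occur in transcripts of other annotated genes or pseudogenes too. Snrpd3 was listed at 0, 0.608, 0.741 and 0 TPM in the 2 control and 2 DMSO libraries and was not tested. The 7 genes of the ring summed to 2051 and 2463 TPM in the controls and 1598 and 1769 TPM in DMSO.

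Proteins particular to the U1 and U2 particles gave values of both kinds. Snrpa, which binds U1 RNA, measured 162 and 209 TPM against 61 and 142 TPM, and Snrpa1, which binds U2 RNA, 390.5 and 450.0 TPM against 183 and 278 TPM. The groups did not overlap for either gene, and neither was called. Snrpc, which helps U1 hold the 5′ splice site, measured 574 and 711 TPM against 577 and 686 TPM, and Snrpb2, which binds U2 RNA together with Snrpa1, 22.5 and 38.9 TPM against 37.1 and 38.5 TPM, so that the groups overlapped for both.

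Of the factors of the U2 and U5 particles, 5 of 16 tested fell and none was called higher, with a median log2 fold change of -0.83 and values below 0 in 13. Over all genes tested, 14.1% were called lower and 53.2% lay below 0. With no trend, and with median-ratio, quantile or mitochondrial rescaling, 2 of these factors were called lower, and with a replicate block 11. Over all genes, 1397, 1262, 1121 and 1232 were called lower in those settings in turn, and 2981 with the block. SF3A, which joins U2 to the branch region, held 2 of the 5 that fell. Sf3a1 (chr11:4160350-4182541, plus strand) measured 33.4 and 37.0 TPM in the controls and 13.2 and 14.2 TPM in DMSO, a log2 fold change of -1.30 ± 0.27 (SE, n = 2 per group, limma adjusted p = 0.0281). Sf3a3 measured 59.0 and 65.1 TPM in the controls and 23.2 and 33.9 TPM in DMSO, a log2 fold change of -1.11 ± 0.29 (SE, n = 2 per group, limma adjusted p = 0.0433). For both genes the lowest control was well above the highest DMSO value. Sf3a2, the remaining subunit, lay at 2.49 and 3.86 TPM against 0.678 and 1.53 TPM and was not called.

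The SF3B complex, which holds the branch point adenosine in place, had no called member among the 5 subunits of this list tested with limma, and 2 of them, Sf3b2 and Sf3b4, had an unadjusted p under 0.05. Of its small subunits from the further lists below, Sf3b6 had 161 and 247 TPM against 49.9 and 111 TPM (log2 fold change -1.41, limma adjusted p = 0.0595), and Phf5a had 386 and 331 TPM against 453 and 347 TPM, and neither was called. Sf3b1, its largest subunit and the one that contacts the branch helix, measured 19.3 and 20.8 TPM in the controls and 23.8 and 31.5 TPM in DMSO (log2 fold change 0.43, limma adjusted p = 0.290). Sf3b1 thus had the highest fold change of this group. Sf3b2 had 63.6 and 53.3 TPM against 35.9 and 33.5 TPM, and Sf3b4 had 18.6 and 27.7 TPM against 6.6 and 13.2 TPM. With a replicate block Sf3b2 and Sf3b4 were called lower (limma adjusted p = 0.0291 and 0.0106). Sf3b5 had 57.5 and 63.8 TPM against 42.4 and 46.1 TPM, and Sf3b3 stayed near 9 TPM in all 4 libraries with overlapping groups. The difference between SF3A and SF3B was not tested.

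Of the proteins that mark the branch point and the 3′ splice site before U2 arrives, U2af1, the small subunit of U2AF, was the most abundant of this group. Its TPM was 491 and 341 in the controls and 561 and 372 in DMSO, which overlap, and its log2 fold change was 0.16 (limma adjusted p = 0.727). Sf1, which binds the branch sequence, had 25.2 and 26.9 TPM against 16.6 and 24.5 TPM. U2af2, the large subunit of U2AF, was listed at 0 in all 4 libraries. Whether the RNA of U2af2 was absent from these embryos was not tested, and no fold change is given for it. Prpf19, an E3 ubiquitin ligase of the activated spliceosome, was listed at 0.435 and 0.509 TPM in the controls and at 0.215 and 2.63 TPM in DMSO, below the filter on low values.

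All 6 listed proteins of the U5 particle and the tri-snRNP had lower values in DMSO, with groups that did not overlap, and 3 of them fell, beside 38.7% and 14.1% of all genes tested. Snrnp200 (Brr2, chr2:127208386-127240451, plus strand) is the helicase that unwinds U4 from U6. Its TPM was 24.6 and 23.1 in the controls and 3.63 and 10.7 in DMSO, and the DMSO libraries differed from each other almost 3-fold. The log2 fold change of Snrnp200 was -1.76 ± 0.46 (SE, n = 2 per group, limma adjusted p = 0.0434). It was -1.09 without the 1st DMSO library and -2.43 without the 2nd. Prpf3 and Prpf4, proteins of the U4/U6 particle, fell by 1.21 and 1.26 on the log2 scale. Prpf3 measured 63.1 and 67.7 TPM in the controls and 22.7 and 33.5 TPM in DMSO (limma adjusted p = 0.0368), and Prpf4 26.9 and 22.8 TPM against 9.53 and 10.0 TPM (limma adjusted p = 0.0320). With median-ratio, quantile or mitochondrial rescaling Prpf4 was still called, while Snrnp200 and Prpf3 were not. Their log2 fold changes were then -1.66, -1.65 and -1.67 for Snrnp200 and -1.11, -0.96 and -1.10 for Prpf3. Prpf8, the scaffold at the catalytic centre, had 12.9 and 12.1 TPM against 6.95 and 7.24 TPM. Prpf6, which bridges U5 to the U4 and U6 particles, had 15.5 and 15 TPM against 9.33 and 6.56 TPM. Prpf31, a U4 protein, had 13.5 and 18.4 TPM against 8.28 and 9.22 TPM, and none of these last genes was called.

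**Figure D2:**
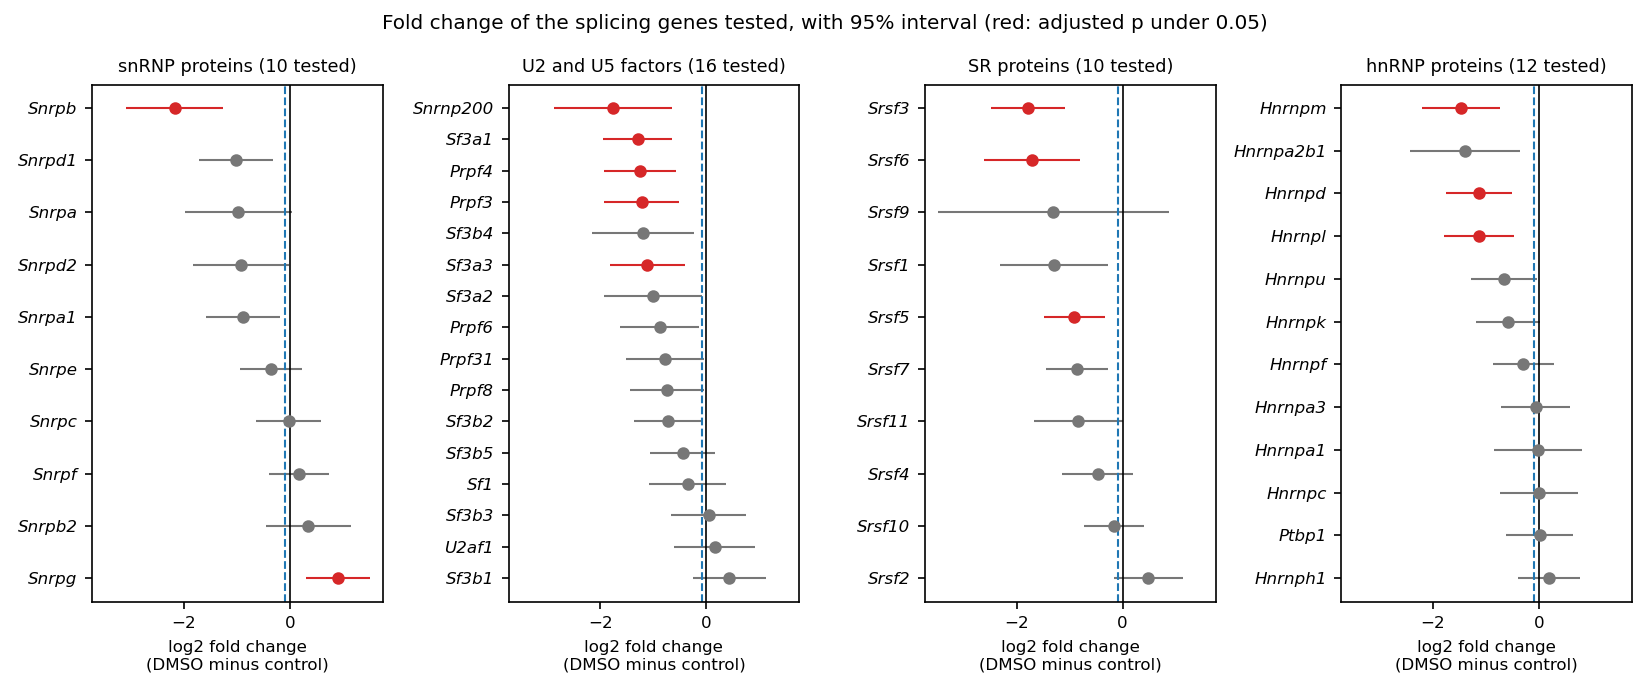
Log2 fold change (DMSO minus control, on the log2(TPM + 1) scale) of each of the 48 tested splicing genes with its 95% interval from limma, by group and in order of size, red where the adjusted p is under 0.05, with a dashed line at the median of all genes tested. The 12 genes called lower run from -2.18 (Snrpb) to -0.91 (Srsf5), and Snrpg at 0.90 is the gene called higher.

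Among the SR proteins, 3 of 10 fell, none was called higher and 9 had a log2 fold change below 0, with a median of -0.88. Over all genes tested, 14.1% were called lower and 53.2% lay below 0. Srsf3, the smallest protein of the family, is required for mouse embryos to form a blastocyst. It lies at chr17:29032628-29043373 on the plus strand. Its TPM was 101 and 146 in the controls and 32.6 and 36.6 in DMSO. The log2 fold change of Srsf3 was -1.79 ± 0.29 (SE, n = 2 per group, limma adjusted p = 0.0207), the lowest p of the 48 genes. Its copy Gm9761 had 29.5 and 59.7 TPM in the controls and 0.449 and 2.97 TPM in DMSO. The call held for the sum of gene and copy, whose log2 fold change was -2.15 (limma adjusted p = 0.0181).

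Srsf6 measured 26.9 and 39.1 TPM in the controls and 6.80 and 12.4 TPM in DMSO, a log2 fold change of -1.71 ± 0.38 (SE, n = 2 per group, limma adjusted p = 0.0308). Srsf5 was the most abundant of the called genes that fell, with 378 and 381 TPM in the controls and 190 and 214 TPM in DMSO. Its values within a group were close together, and it fell by 0.91 on the log2 scale (SE 0.24, n = 2 per group, limma adjusted p = 0.0425). All 3 proteins bind exonic enhancers, and the RNAs of this family are known to include isoforms with an extra exon that leads to decay. A TPM per gene sums over isoforms, so changes among them are not seen here.

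The other SR proteins were not called. Srsf7 had 220 and 195 TPM against 110 and 117 TPM, with an adjusted p of 0.0510 by limma, just outside the threshold. Srsf1, the founding member of the family, had 50.8 and 81.9 TPM against 17.6 and 37.3 TPM. Srsf9 was the most uneven of these genes: 13.8 and 9.08 TPM in the controls, and 0.713 and 13.3 TPM in DMSO. Srsf4 and Srsf11 had lower DMSO values, with log2 fold changes of -0.47 and -0.83. Srsf10, which acts as a repressor when it loses its phosphates, had 318 and 296 TPM in the controls and 264 and 286 TPM in DMSO (log2 fold change -0.16, limma adjusted p = 0.641). Srsf2 (SC35), which binds exonic enhancers, was the only SR gene above 0. Its TPM was 274 and 192 in the controls and 321 and 322 in DMSO (log2 fold change 0.48, limma adjusted p = 0.222).

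Of the 12 hnRNP genes, 3 fell, none was called higher and 10 had a log2 fold change below 0, with a median of -0.44. Over all genes tested, 14.1% were called lower and 53.2% lay below 0. The hnRNP genes averaged 39.3 TPM or more, and from 50 TPM upwards 26.5% of all genes were called lower. After quantile normalization the hnRNP median was -0.22 and 1 hnRNP gene was called lower. The median of all 12038 genes tested was then 0.0052, and 1121 of them were called lower. Hnrnpm (chr17:33646233-33686860, minus strand), which binds GU-rich RNA, measured 189 and 193 TPM in the controls and 53.5 and 87.3 TPM in DMSO, a log2 fold change of -1.47 ± 0.31 (SE, n = 2 per group, limma adjusted p = 0.0281). Hnrnpd (AUF1; chr5:99955935-99978938, minus strand), which binds AU-rich elements and affects the decay of mRNAs, measured 123 and 138 TPM in the controls and 53.2 and 65.0 TPM in DMSO, a log2 fold change of -1.14 ± 0.26 (SE, n = 2 per group, limma adjusted p = 0.0324). Hnrnpl, which binds CA repeats, measured 81.0 and 68.9 TPM in the controls and 29.8 and 37.8 TPM in DMSO, a log2 fold change of -1.13 ± 0.27 (SE, n = 2 per group, limma adjusted p = 0.0365). For all 3 genes each DMSO library was under each control library.

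The groups overlapped for 4 hnRNP genes. Hnrnpa1, a repressor of splice sites and the most abundant gene of the group, measured 508 and 311 TPM in the controls and 488 and 319 TPM in DMSO (log2 fold change -0.01, limma adjusted p = 0.981). Its identical copy Gm10052 was listed at 95.1 and 48.3 TPM in the controls and at 0 in both DMSO libraries, and with its copies summed the log2 fold change of Hnrnpa1 was -0.24 (limma adjusted p = 0.630). Hnrnpc, which binds runs of uridine, had 229 and 141 TPM against 193 and 167 TPM, and Ptbp1, the polypyrimidine tract binding protein, 129 and 148 TPM against 123 and 157 TPM. Hnrnpa3 had 84.8 and 110 TPM against 101 and 84.3 TPM, beside 198 and 93.6 TPM against 117 and 49.4 TPM for its copy Gm5641. Hnrnph1, which binds runs of G, had 246 and 291 TPM against 292 and 321 TPM and the highest fold change of the group, 0.19 on the log2 scale with a limma adjusted p of 0.575.

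Hnrnpa2b1 had a large difference and a wide spread, with 168 and 91.3 TPM in the controls and 64.8 and 33.3 TPM in DMSO, and it was not called (log2 fold change -1.40, limma adjusted p = 0.0617). Hnrnpk, which binds runs of C, had 342 and 276 TPM against 213 and 196 TPM. Hnrnpu, a scaffold protein of the nucleus, had 48.8 and 47.7 TPM against 32 and 28.7 TPM, and Hnrnpf 410 and 358 TPM against 304 and 319 TPM. The DMSO libraries of these last 4 genes lay below both controls without a call. In Hnrnpf 66.2% of the words of 31 bases occur in transcripts of other annotated genes or pseudogenes.

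**Figure D3:**
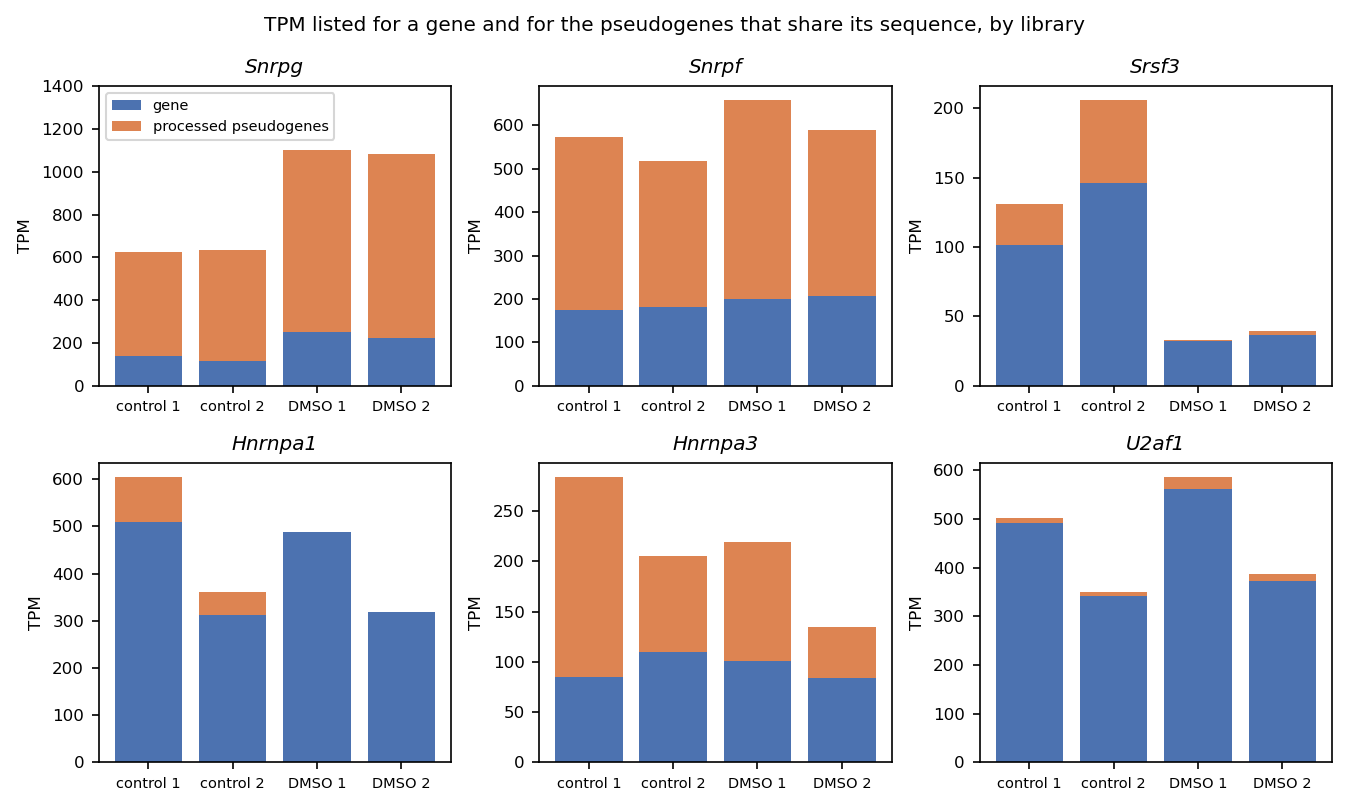
TPM of 6 splicing genes (blue) and of the pseudogenes that share their sequence (orange) in each of the 2 control and 2 DMSO libraries, stacked so that the bar height is their sum; each panel has its own axis from 0. Gm8186 carries more TPM than Snrpg in every library, and the sum for Srsf3 is lower in both DMSO libraries.

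Summed over all the splicing genes found, the level was 8127 and 8250 TPM in the controls and 6174 and 6458 TPM in DMSO, or 1.06% and 1.06% of the TPM summed over the table in the controls against 0.799% and 0.808% in DMSO. The 12 genes that fell stood at between 22.8% (Snrpb) and 53.2% (Srsf5) of their control mean. With neighbours in that order so close in size and the standard errors at 0.24 to 0.46 on the log2 scale, their order by size was not resolved. Snrpb, Sf3a1, Prpf4, Srsf3, Srsf6 and Hnrnpm were called with each pseudocount, under each scaling, without the trend and with the stricter filter, but not with the filter removed or with 1 of the 3 libraries named above left out. Of the same 6 settings (the smaller pseudocount, the stricter filter, no trend and the 3 scalings), Hnrnpd was called in 5, Snrpg in 4, Hnrnpl in 3, Prpf3 and Srsf5 in 2, and Snrnp200 and Sf3a3 in 1.

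Other genes of the splicing machinery, given in lists of fixed membership, were described in the same way. Of 144 such genes 141 were found and 136 tested. Of these 27 fell, 3 rose and 104 had a log2 fold change below 0, with a median of -0.56. The 19.9% that fell stood beside 14.1% of all genes tested and 22% of those at 10 TPM or more. After quantile normalization 15 of the other splicing genes were called lower and their median was -0.31, beside 1121 of all 12038 genes and a median of 0.0052. With a replicate block 60 of the other splicing genes were called lower, beside 2981 of all 12038 genes.

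The proteins that build snRNPs had the lowest median of these lists, -1.16, with 5 of 14 called lower (35.7%, beside 14.1% of all genes tested). They include the SMN complex, which loads the Sm ring onto the small nuclear RNA. Gemin4, a subunit of that complex, was listed at 15.3 and 15.5 TPM in the controls and at 0.905 and 0 TPM in DMSO, and its log2 fold change of -3.57 (limma adjusted p = 0.0181) depends on the pseudocount. Clns1a (pICln), which holds Sm proteins before assembly, fell by 1.68 on the log2 scale, from 179 and 176 TPM to 40.1 and 74.3 TPM (limma adjusted p = 0.0265). Snupn, which imports snRNPs into the nucleus, measured 241 and 255 TPM in the controls and 79.7 and 119 TPM in DMSO and fell by 1.34 on the log2 scale (limma adjusted p = 0.0291). Gemin2 and Gemin5 fell too, with log2 fold changes of -1.68 and -1.91. Smn1 itself had 1.96 and 6.26 TPM against 0.347 and 1.53 TPM and was not called.

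Of 11 other tri-snRNP proteins 3 fell (27.3%, beside 14.1% of all genes tested): Eftud2, the GTPase of U5 (13.3 and 22.3 TPM to 3.48 and 4.29 TPM), Txnl4a, a small U5 protein (73.3 and 91.7 TPM to 14.0 and 29.9 TPM), and Prpf38a. In 8 of the 11 both DMSO libraries lay below both controls, beside 38.7% of all genes tested. In 2, Snrnp27 and Ppih, they lay above both without a call, a pattern held by 31.1% of all genes. The log2 fold changes of these 2 were 0.42 and 0.11. Of 22 proteins of the Prp19 and activated complexes 6 fell (27.3%, beside 14.1% of all genes tested) and 1 rose (6.42% of all genes did). Crnkl1, a scaffold of the activated spliceosome, measured 130 and 176 TPM in the controls and 32 and 40.6 TPM in DMSO (log2 fold change -2.04, limma adjusted p = 0.0181). Prpf18 and Slu7, which act in the step that joins the exons, had log2 fold changes of -2.29 and -1.50. Plrg1, Rbm22 and Ppie made up the rest of the 6. Aqr, a helicase of the intron-binding complex, went the other way, with 48.1 and 38.3 TPM in the controls and 90.7 and 101 TPM in DMSO (log2 fold change 1.14, limma adjusted p = 0.0335). The call of Aqr was lost with no filter and with any 1 library left out. With a library left out its log2 fold change lay between 0.98 and 1.30.

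Of 8 Lsm proteins, most of which form the ring on U6 while Lsm1 belongs to a cytoplasmic ring in mRNA decay, 2 fell (25%, beside 14.1% of all genes tested). Lsm2 measured 178 and 214 TPM in the controls and 35.4 and 69.0 TPM in DMSO, and Lsm5 28.1 and 72.8 TPM against 12.3 and 9.93 TPM. In 3 of the 8 (37.5%) both DMSO libraries lay below both controls, close to the 38.7% of all genes tested. In 3 others (Lsm1, Lsm7 and Lsm8) they lay above both without a call, a pattern held by 31.1% of all genes. The log2 fold changes of these 3 were 0.62, 0.67 and 0.13. Of 18 other proteins associated with U1 and U2, 2 were called lower (11.1%, beside 14.1% of all genes tested), and 4 had a log2 fold change above 0. Luc7l3, a protein associated with U1, measured 148 and 140 TPM in the controls and 45.3 and 72.9 TPM in DMSO (log2 fold change -1.31, limma adjusted p = 0.0337). It was not called with quantile normalization (log2 fold change -1.02, limma adjusted p = 0.0690) or with mitochondrial rescaling (-1.19, limma adjusted p = 0.0514). Of 10 proteins of the minor spliceosome, which removes a rare class of introns, 3 fell (30%, beside 14.1% of all genes tested): Scnm1, Zcrb1 and Zmat5, with log2 fold changes of -1.47, -1.20 and -1.31.

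Of the 7 kinases that phosphorylate SR proteins, none was called lower by limma (1 had a lower value with an unadjusted p under 0.05) and 1 rose, beside 14.1% and 6.42% of all genes tested. In 6 of the 7 the log2 fold change was below 0 (53.2% of all genes), with a median of -0.52. In 5 both DMSO libraries lay below both controls (38.7% of all genes). Srpk2 rose by 1.19 on the log2 scale, with 11.2 and 7.85 TPM in controls against 26.5 and 19.3 TPM in DMSO (limma adjusted p = 0.0488). In the exon junction complex 1 of 8 fell (12.5%, beside 14.1% of all genes tested), Acin1, from 24.0 and 18.0 TPM to 5.47 and 4.05 TPM. Of 14 further hnRNP proteins 2 fell, a share of 14.3% close to that of all genes, and 1 rose. Syncrip (hnRNP Q) measured 237 and 239 TPM in the controls and 54.8 and 68.9 TPM in DMSO (log2 fold change -1.94, limma adjusted p = 0.0181), and Hnrnpr, its close relative, fell by 1.03 on the log2 scale. Raly had 9.13 and 2.99 TPM in the controls and 17.9 and 23.9 TPM in DMSO (log2 fold change 1.77, limma adjusted p = 0.0462). The calls of Srpk2 and Raly were lost with a pseudocount of 0.1 (limma adjusted p = 0.0542 and 0.0572), with no trend, with no filter and with any 1 library left out, and without the 2nd control the log2 fold change of Raly was 1.10. Among 24 other splicing regulators 3 fell, or 12.5%, beside the same 14.1%: Nono, a protein of paraspeckles, Tial1, which binds uridine-rich sequence next to 5′ splice sites, and Srrm1, a coactivator that works with SR proteins, with log2 fold changes of -1.64, -1.68 and -1.12.

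**Figure D4:**
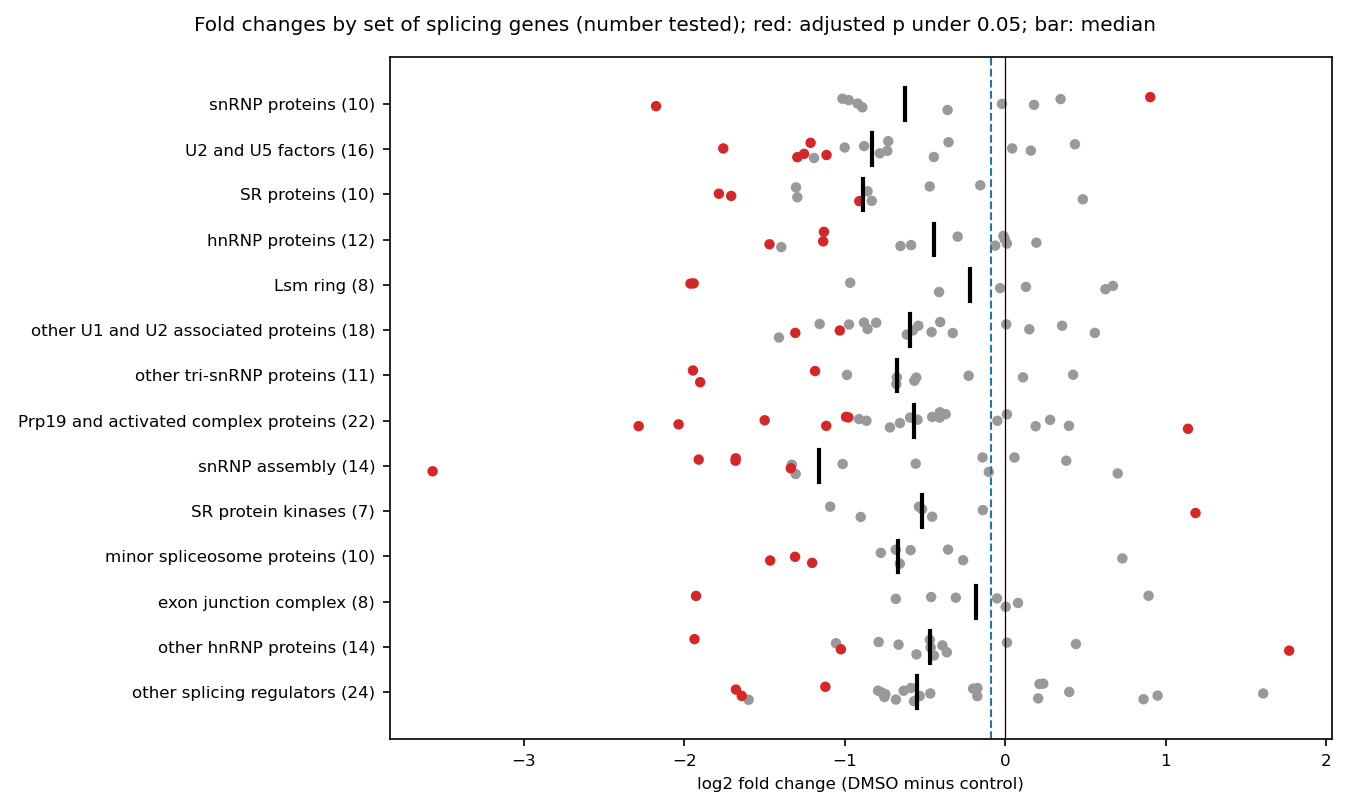
Log2 fold change (DMSO minus control) of every tested gene in the 4 groups of splicing proteins and in the 10 lists of other splicing genes, 1 point per gene, red where the limma adjusted p is under 0.05, with a black bar at the median of the row and a dashed line at the median of all 12038 genes tested, -0.09. The median lies below the dashed line in each row, lowest at -1.16 for the snRNP assembly proteins.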

How the data were processed

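RNA from pools of 2-cell embryos was sequenced in 4 libraries. Per the labels and the study's methods, the authors estimated transcript abundances with kallisto against Ensembl transcripts of the mouse genome build mm10 (GRCm38) and summed them per gene with tximport, and deposited a table of TPM values for all 4 libraries. Versions of these tools are not given in the sources used here, and the labels name both single-end and paired-end reads of 50 bases. Rows name genes by Ensembl ID, and 29668 of the 30049 IDs were named through GENCODE M21. The TPM columns summed to between 768174 and 799166. TPM keeps no read depth, so the depth of each library is unknown, and no counting interval can be given. The authors tested estimated counts with DESeq2. Here, with TPM alone, limma 3.58.1 (R 4.3.3) was fitted to log2(TPM + 1) of the 12038 genes that averaged 1 TPM or more, with treatment as the only term, a mean-variance trend, 2 residual degrees of freedom and Benjamini-Hochberg adjustment over all genes tested. A gene was called at an adjusted p under 0.05. All fold changes use log2(TPM + 1), so those of low genes are understated. The fit was tested on simulated data with known changes.

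The splicing genes and all gene lists were chosen with earlier results of these data known. Values are printed in full for called genes (up to 6 per group, lowest p first), the most abundant gene and those with the highest and lowest fold change at 10 TPM or more in each group, and in each list of other splicing genes for the called gene with the lowest p; other values were added after they were seen. Pseudogenes were linked to a gene where at least 50% of their words of 31 bases occur in its transcripts. Alternatives were another pseudocount (0.1), no filter and a filter of 5 TPM, no trend, median-ratio and quantile scaling, TPM rescaled without mitochondrial genes, genes summed with their pseudogenes, a replicate block, and leaving out each library. In those last fits 1 residual degree of freedom remained and the lone library of a group was assumed to vary like the other group. Markers of blood cells (4.08, 1.85, 3.90 and 4.63 summed TPM in the control and DMSO libraries in turn, mostly Hba-a1) and of sperm (2.84, 3.38, 13.4 and 8.48, mostly Prm2) were checked too. The 2 sperm markers tested were called higher in DMSO: Prm2 (log2 fold change 1.39, limma adjusted p = 0.0408) and Tnp1 (1.35, limma adjusted p = 0.0429). Their part in the fall of the splicing genes was not tested. Snrnp70, Dhx15, Rbm8a and Ptbp2 were not analysed here. The values of 1 further gene are not reported here.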

Additional observations from a re-analysis of the deposited data

How the results depend on the processing

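With no filter on low values (22257 genes, prior degrees of freedom 2.15 instead of 4.59), limma called 0 genes lower and 0 higher, among all genes, splicing genes, each group and the other splicing genes, although 5368 genes, 25 of the splicing genes among them, had an unadjusted p under 0.05. The median over all genes was then 0.0012 and that of the snRNP proteins -0.36. With quantile normalization 1121 genes were called lower, 6 splicing genes (2 U2 and U5 factors and 1 hnRNP) and 15 other splicing genes. The medians were then 0.0052 for all genes, -0.63 for the splicing genes, -0.45 for snRNP, -0.22 for hnRNP and -0.31 for other splicing genes. With TPM rescaled without mitochondrial genes 1232 genes were called lower. They included 7 splicing genes, 2 of these U2 and U5 factors, and the medians were 0.0058 for all genes and -0.70 for the splicing genes. Median-ratio scaling gave a median of -0.71 and called 2 U2 and U5 factors lower. The share of calls that were higher was 31.3% in the fit reported, 42.9% with median-ratio, 49% with quantile and 43.6% with mitochondrial rescaling. With no trend 7 splicing genes were called lower, 2 of them U2 and U5 factors, 0 were called higher, and 1 other splicing gene was called higher. A pseudocount of 0.1 left 0 splicing genes and 1 other splicing gene called higher and 3 U2 and U5 factors lower. A filter of 5 TPM gave a median of -0.19 over all genes and 2 snRNP proteins called lower. Summing genes with their pseudogenes left 0 splicing genes called higher. In every setting the median of the splicing genes and of each group stayed below 0.

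Leaving out each library in turn, calls ranged from 0 to 1276 lower and from 0 to 607 higher over all genes, from 0 to 13 lower and 0 to 0 higher for the splicing genes, from 0 to 2 for snRNP, 0 to 4 for U2 and U5, 0 to 4 for SR and 0 to 3 for hnRNP genes called lower, and from 0 to 23 lower and 0 to 2 higher for other splicing genes. No gene was called without the 1st control, the 2nd control or the 1st DMSO library. Without the 2nd DMSO library 1276 genes were called lower, and Snrpg, the splicing gene called higher, was not called. Medians ranged from -0.81 to -0.68 for the splicing genes and from -0.79 to -0.36 for snRNP proteins. The sign turned in at least 1 setting for 10 of the 48 splicing genes tested, none of them among the 13 called: in 4 with median-ratio scaling, 5 with quantile normalization, 4 with mitochondrial rescaling, and 3 to 5 with a library left out. Of the 10, Srsf9 was called in 1 setting: it was at -2.84 without the 2nd DMSO library (limma adjusted p = 0.0312) and at 0.23 without the 1st. U2af1 was at -0.10 without the 2nd control and -0.14 without the 1st DMSO library, and at most 0.45 over the 4 libraries left out. Srsf10 was at 0.081 with quantile normalization. Hnrnpa1 was at 0.089 with median-ratio, 0.20 with quantile and 0.11 with mitochondrial rescaling, 0.34 without the 1st control and 0.29 without the 2nd DMSO library, and as low as -0.37 without the 2nd control. The cause of these changes was not tested.

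The groups share replicate numbers 1 and 2, which the labels do not tie to a common collection. Deviations from the group means of same-numbered libraries correlated at 0.354 across genes, and with 2 numbers and no such label, whether the numbers pair the samples cannot be settled here. With a replicate block limma called 2981 genes lower and 2151 higher. It called 28 splicing genes lower (5 snRNP, 11 U2 and U5, 6 SR and 6 hnRNP), and 60 other splicing genes lower and 7 higher. All 2470 genes called without the block were called with it. The splicing genes it added were Snrpa, Snrpa1, Snrpd1, Snrpd2, Sf3a2, Sf3b2, Sf3b4, Prpf6, Prpf8, Prpf31, Srsf1, Srsf7, Srsf11, Hnrnpa2b1, Hnrnpk and Hnrnpu.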
